A study of Mus musculus with 6 samples.

Results

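The 10 genes described here encode subunits of the CCR4-NOT complex: Cnot1, Cnot2, Cnot3, Cnot4, Cnot6, Cnot6l, Cnot7, Cnot8, Cnot10 and Cnot11. They were listed by Ensembl gene ID as parts of one complex, by a rule that takes no measured value, and all 10 were found among the 54446 gene IDs of the count files. Cnot9 is not in the list, so what is said below of the complex covers these 10 genes only. The study sequenced RNA that came down with an antibody against YTHDF2 (RNA immunoprecipitation sequencing, RIP-seq) in 3 YTHDF2 IP libraries, beside 3 Input libraries of total RNA from lysate set aside before the precipitation. All 6 libraries came from wild-type (WT) regulatory T (Treg) cells, sorted as live CD45+CD4+ cells with a Foxp3-GFP reporter from subcutaneous tumours of B16F10, a mouse melanoma line. The age of the animals, and whether replicates 1 to 3 of a group came from separate animals or pools, are not given in the labels, so each p-value covers the spread among these 6 libraries and no more, and that spread may be technical. No control with an unrelated antibody, or from YTHDF2-deficient cells, was analysed here. A change therefore means a different level in the IP than in the Input, not binding as such. The libraries pool many cells, so a difference in RNA per cell and a difference in the number of cells holding it cannot be told apart.

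CCR4-NOT is the main deadenylase of the cytoplasm. It shortens the poly(A) tail of mRNAs, which is the usual first step of their decay. CNOT1 is the scaffold on which the other subunits assemble, CNOT6 and CNOT6L (homologues of yeast Ccr4) and CNOT7 and CNOT8 (homologues of yeast Caf1) are the nucleases, CNOT2 and CNOT3 form the NOT module at one end of the scaffold, and CNOT10 and CNOT11 form a module at the other end. CNOT4 is a RING-type ubiquitin ligase that is a stable part of the complex in yeast and a loosely bound one in mammals. YTHDF2 is a cytoplasmic reader of N6-methyladenosine (m6A) in mRNA, and in human cell lines it has been shown to recruit the complex by contact with CNOT1. The measurements here concern the mRNAs that encode the subunits, not the proteins, and the comparison asks whether YTHDF2 recovers the messages of the machinery it recruits.

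The IP libraries held 6847731 to 8465453 gene-assigned reads and the Input libraries 10029733 to 14704617. Reads per subunit gene and library ran from 0 to 7786 in the IP and from 331 to 6647 in the Input. IP replicate 3 had a read for the fewest gene IDs, 14200, against 18501 and 19991 in the other IP libraries and 26250 to 33344 in the Input libraries. Of the 3 IP libraries it also had the highest level of Cnot1 and the lowest level of 8 of the 10 genes, all except Cnot1 and Cnot6. The share of all tested genes that were lowest in this library was not computed, so this is not read as particular to the complex. Levels are given below as CPM (gene counts relative to the depth of the library), scaled by the TMM method of edgeR. CPM is not divided by transcript length, so it compares a gene between libraries and not one gene with another.

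Of the 10 subunit genes, Cnot1 was enriched in the IP and none was depleted, as called by edgeR's quasi-likelihood test at an adjusted p under 0.05. Over all 15615 genes tested, 4.33% were enriched and 6.11% were depleted, so 1 enriched gene of 10 and 0 depleted genes of 10 do not set the complex apart from that background. At an unadjusted p under 0.05, 2 of the 10 genes were higher in the IP, Cnot1 and Cnot4, and 0 were lower, beside 10.0% of all tested genes higher and 13.9% lower at that threshold. DESeq2 and limma voom also called 0 of the 10 depleted, in fits that called 10% and 10.98% of their tested genes depleted. The log2 fold changes of IP over Input were above 0 for 5 genes and below 0 for the other 5, with a median of -0.0044 (quartiles -0.35 and 0.23). The median over all tested genes was -0.12 (quartiles -1.08 and 0.65). Calls were more frequent at the level of these genes: among the 5365 tested genes with a mean of 28.7 to 619 CPM, the range of the 10 members, 10.5% were enriched and 14.1% depleted, with a median log2 fold change of 0.018.

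**Figure D1:**
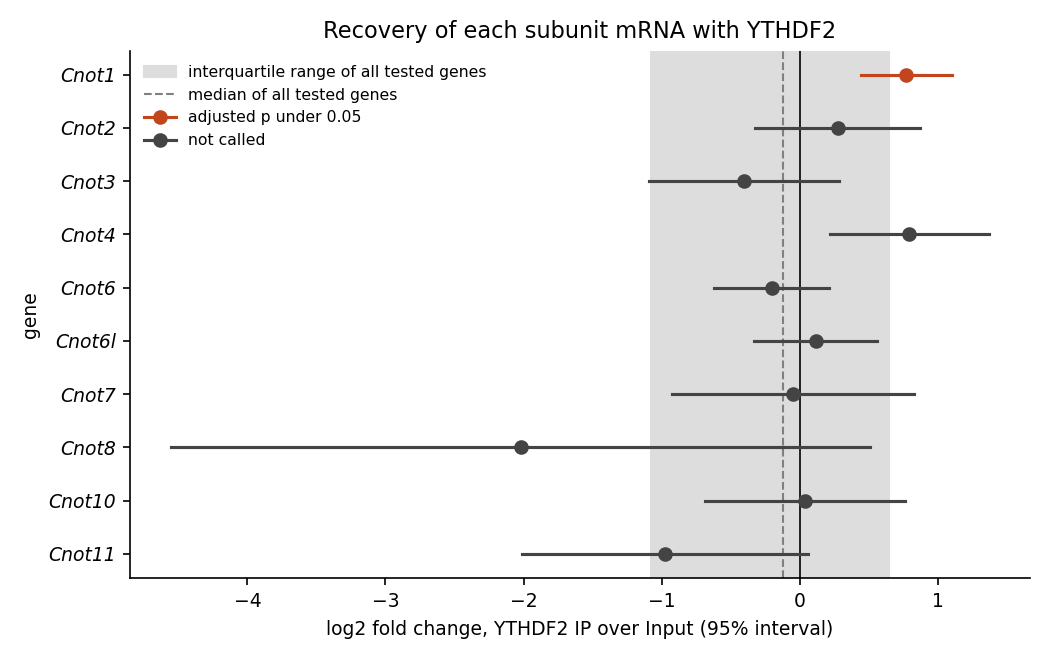
The log2 fold change of YTHDF2 IP over Input (horizontal axis) is drawn for each subunit gene with its 95% interval from edgeR, beside the median and the interquartile range of all 15615 tested genes. The interval of Cnot1 lies above 0 and passes the adjusted test, that of Cnot4 lies above 0 without passing it, and the other 8 intervals include 0.

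Cnot1 (ENSMUSG00000036550.16) encodes the scaffold and lies on chromosome 8 at 95718931 to 95808113 (GRCm38.p6, the RefSeq gene span). It had 697, 732 and 915 CPM in YTHDF2 IP replicates 1, 2 and 3, against 474, 466 and 431 CPM in Input replicates 1, 2 and 3. Every IP library lay above every Input library, and the lowest IP value exceeded the highest Input value by far more than the Input libraries differed among themselves. The means were 781 ± 117 CPM in the IP and 457 ± 23.2 CPM in the Input (SD, n = 3 each), a log2 fold change of 0.77 ± 0.15 (SE) or 1.71-fold (edgeR adjusted p = 0.00967). This enrichment is moderate: 78.4% of the tested genes had a lower log2 fold change. With 1 library left out, the estimate was lowest without YTHDF2 IP replicate 3, at 0.61 (edgeR adjusted p = 0.0145). Without Input replicate 1 it was 0.72 (adjusted p = 0.0490), close to the threshold. These 2 fits called 5.26% and 2.03% of genes enriched. The call was lost without Input replicate 2, with a log2 fold change of 0.71 (adjusted p = 0.0725), and without Input replicate 3, with 0.65 (adjusted p = 0.108), in fits that called 1.40% and 1.09% of genes enriched. It was also lost when libraries were scaled by all their reads, including those outside genes, where the log2 fold change of Cnot1 was 0.25 (adjusted p = 0.370) and that of all genes moved by a median of -0.53.

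Cnot4, the ubiquitin ligase (ENSMUSG00000038784.13, chromosome 6, 35022065 to 35133754), had an estimate as large as that of Cnot1 with a wider error. It had 129, 151 and 113 CPM in YTHDF2 IP replicates 1, 2 and 3, against 82.3, 53.2 and 90.6 CPM in Input replicates 1, 2 and 3. All IP libraries lay above all Input libraries, but the Input libraries were spread more widely than the gap between the groups. The means were 131 ± 19.2 CPM in the IP and 75.3 ± 19.7 CPM in the Input (SD, n = 3 each). The log2 fold change was 0.79 ± 0.26 (SE), with a 95% interval of 0.22 to 1.37 (edgeR adjusted p = 0.0821). The gene passed the threshold in 4 of 15 alternative settings: DESeq2 (adjusted p = 0.0381), upper quartile factors (0.0289), total gene counts (0.0461) and a filter of 1 CPM in all libraries (0.0469). These 4 fits called 6.02% to 11.35% of all tested genes enriched. The log2 fold change of Cnot4 was 0.26 (adjusted p = 0.627) with library sizes from all reads and 0.51 (adjusted p = 0.429) without Input replicate 2.

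Cnot1 and Cnot4 were the 2 members whose IP libraries all exceeded the Input libraries, and 3 members, Cnot6, Cnot8 and Cnot11, had all IP libraries below all Input libraries. Over all tested genes 12.8% lay wholly above and 23.7% wholly below, so neither count departs far from the background. The groups overlapped for the other 5 members.

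**Figure D2:**
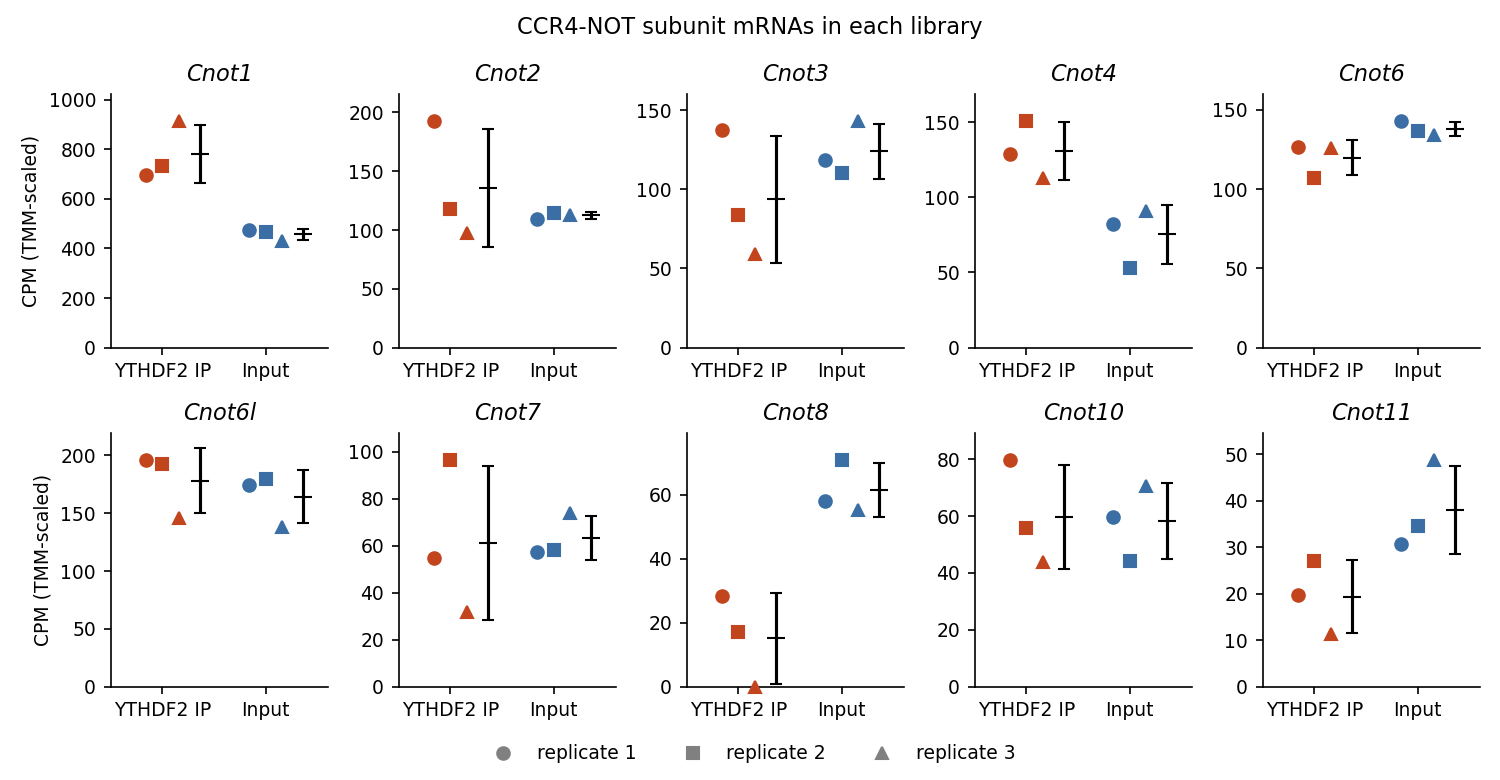
CPM (vertical axes, each from 0) is drawn for each of the 10 genes in the 3 YTHDF2 IP libraries (red) and the 3 Input libraries (blue), with symbols for replicate numbers and bars for the mean ± SD. The IP libraries of Cnot1 sit at 697 to 915 CPM and its Input libraries at 431 to 474 CPM, while Cnot8 sits at 0 in IP replicate 3.

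For the NOT module genes no difference beyond the spread between libraries was detected. Cnot2 (ENSMUSG00000020166.15, chromosome 10, 116485160 to 116581900) had 193, 117 and 97.3 CPM in YTHDF2 IP replicates 1, 2 and 3, against 109.7, 115 and 113 CPM in Input replicates 1, 2 and 3. Its IP libraries lay on both sides of the Input libraries, with a log2 fold change of 0.27 ± 0.27 (SE; edgeR adjusted p = 0.641). Cnot3 (ENSMUSG00000035632.16, chromosome 7, 3645247 to 3661109) had 138, 83.9 and 59.3 CPM in the IP replicates, against 118, 110.2 and 143 CPM in the Input replicates. It too overlapped, with a log2 fold change of -0.40 ± 0.31 (SE; edgeR adjusted p = 0.518). The log2 fold change of Cnot3 was -0.84 (adjusted p = 0.109) without IP replicate 1, -0.19 without IP replicate 3 and -0.94 (adjusted p = 0.0699) with library sizes from all reads. Both genes were highest in IP replicate 1 and lowest in IP replicate 3, so their spread in the IP followed the same libraries.

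The nucleases of the Ccr4 type gave narrow intervals around small changes. Cnot6 (ENSMUSG00000020362.13, chromosome 11, 49671497 to 49713401) had 126, 107 and 126 CPM in YTHDF2 IP replicates 1, 2 and 3, against 143, 137 and 134 CPM in Input replicates 1, 2 and 3. Every IP library was lower than every Input library, yet the log2 fold change was -0.20 ± 0.19 (SE), with a 95% interval of -0.62 to 0.21 (edgeR adjusted p = 0.613). With library sizes from all reads it was called depleted, at -0.73 (adjusted p = 0.0318), in a fit that called 12.54% of genes depleted. Cnot6l (ENSMUSG00000034724.18, chromosome 5, 96070333 to 96164198) had 196, 192 and 146 CPM in the IP replicates, against 175, 180 and 138 CPM in the Input replicates. The groups overlapped, and the log2 fold change of 0.12 ± 0.20 (SE) had a 95% interval of -0.33 to 0.56. These intervals bound any change of either mRNA, under TMM scaling, to less than that estimated for Cnot1.

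The nucleases of the Caf1 type were less evenly measured. Cnot7 (ENSMUSG00000031601.16, chromosome 8, 40492538 to 40515847) had 54.9, 96.5 and 32.0 CPM in YTHDF2 IP replicates 1, 2 and 3, against 57.4, 58.2 and 73.9 CPM in Input replicates 1, 2 and 3. Its IP libraries spread around the Input libraries, with a log2 fold change of -0.048 ± 0.39 (SE; edgeR adjusted p = 0.968). The 95% interval of -0.92 to 0.83 is too wide to tell a change of the size seen for Cnot1 from none.

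Cnot8 (ENSMUSG00000020515.13, chromosome 11, 58092794 to 58118597), the close relative of Cnot7, had the lowest estimate of the 10 genes. It had 28.4, 17.1 and 0 CPM in YTHDF2 IP replicates 1, 2 and 3, from 245, 119 and 0 reads, against 58.2, 71.0 and 55.4 CPM in Input replicates 1, 2 and 3, from 816, 680 and 646 reads. All IP libraries lay below all Input libraries, and the IP libraries also differed widely among themselves. The means were 15.2 ± 14.3 CPM in the IP and 61.5 ± 8.32 CPM in the Input (SD, n = 3 each). The log2 fold change was -2.02 ± 1.13 (SE), with a 95% interval of -4.55 to 0.51 (edgeR adjusted p = 0.334), and limma voom gave -4.40 (adjusted p = 0.0690). The count of 0 in IP replicate 3 allows up to 3 reads, or 0.353 CPM, for counting error only, since the files carry no molecular identifiers.

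That library decided the call of Cnot8. Without YTHDF2 IP replicate 3 the log2 fold change was -1.46 ± 0.32 (SE; edgeR adjusted p = 0.0147), so Cnot8 was then depleted, in a fit that called 8.73% of genes depleted. The other IP libraries predicted 185 reads of Cnot8 in IP replicate 3. Genes without a read at such a level were frequent there: of 2084 genes with 100 to 200 predicted reads, 13.3% had none in IP replicate 3 (95% Clopper-Pearson interval 11.9% to 14.8%). The same share was 3.48% of 2039 genes in IP replicate 2, 5.45% of 2146 genes in IP replicate 1 and 0 of 1874 genes in Input replicate 3, an upper 95% bound of 0.197%. The part of this loss of reads in the value of Cnot8 was not tested.

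The genes of the remaining module also had unlike estimates. Cnot10 (ENSMUSG00000056167.7, chromosome 9, 114585874 to 114640220) had 79.8, 55.7 and 43.7 CPM in YTHDF2 IP replicates 1, 2 and 3, against 59.7, 44.1 and 70.7 CPM in Input replicates 1, 2 and 3. The groups overlapped, with a log2 fold change of 0.039 ± 0.32 (SE; edgeR adjusted p = 0.969). Cnot11 (ENSMUSG00000003135.15, chromosome 1, 39535701 to 39546881) had 19.7, 27.0 and 11.4 CPM in the IP replicates, against 30.8, 34.6 and 48.9 CPM in the Input replicates. Here all IP libraries lay below all Input libraries, with means of 19.4 ± 7.81 CPM in the IP and 38.1 ± 9.53 CPM in the Input (SD, n = 3 each). The log2 fold change of -0.98 ± 0.46 (SE) had a 95% interval of -2.01 to 0.058 (edgeR adjusted p = 0.237), and Cnot11 was called in 0 of 15 alternative settings.

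The spread between replicates was larger in the IP for 9 of the 10 genes, all except Cnot4. The coefficient of variation ran from 9.07% for Cnot6 to 94.3% for Cnot8 in the IP, and from 2.33% for Cnot2 to 26.1% for Cnot4 in the Input. Over the members its median reached 33.9% among IP libraries and 13.9% among Input libraries. Tested genes within the same range of mean CPM had medians of 28.5% in the IP and 13.1% in the Input, so the 10 genes were about as variable as others of their level.

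Shares of the summed reads of the 10 genes give a view that no scaling factor enters, because each share is set within its own library. Cnot1 took 41.9%, 46.3% and 59.3% of these reads in YTHDF2 IP replicates 1, 2 and 3, against 36.2%, 36.7% and 33.2% in Input replicates 1, 2 and 3. Its share was thus higher in every IP library than in any Input library, by the widest margin in IP replicate 3. The 4 nuclease genes together took 24.4%, 26.2% and 19.7% in the IP replicates, against 33.1%, 35.1% and 30.9% in the Input replicates. A share within one total falls where another gene rises: by level, the 4 nuclease genes summed to 374 ± 61.2 CPM in the IP and 427 ± 22.7 CPM in the Input (SD, n = 3 each), a ratio of 0.876, and without Cnot8 the ratio was 0.982. The shares describe reads and not molecules, as longer mRNAs give more reads. The summed level of all 10 genes was 1595 ± 60.4 CPM in the IP and 1292 ± 20.6 CPM in the Input (SD, n = 3 each), a ratio of 1.23. Without Cnot1 the sums were 814 ± 171 CPM in the IP and 835 ± 32.6 CPM in the Input (SD, n = 3 each), a ratio of 0.974. Under TMM scaling the sum was thus higher in the IP with Cnot1 counted, and the other 9 genes differed by less than their spread. Relative to all reads in a file, those outside genes included, the sum of the 10 genes was lower in every IP library than in any Input library. The ratio was 0.856, and without Cnot1 it was 0.674. Reads of all genes together fell further on this scale, from a mean of 38.9% of an Input file to 24.8% of an IP file, a ratio of 0.638. The lower sums are therefore not read as a depletion of these 10 genes.

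**Figure D3:**
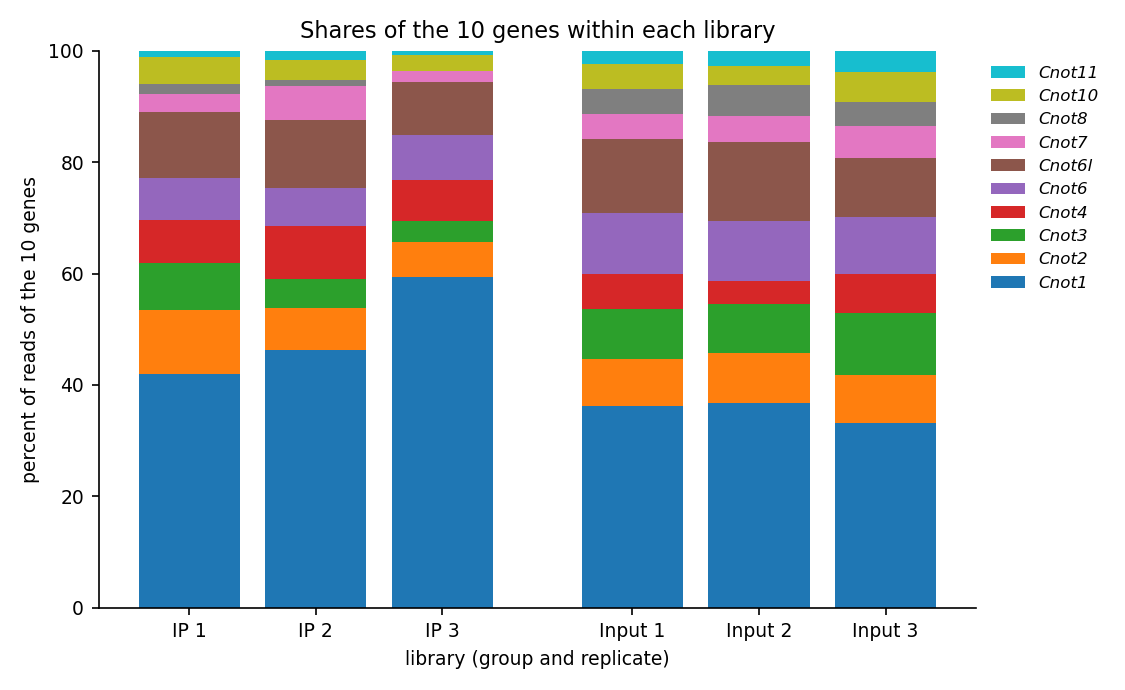
Each bar shows 1 library, the 3 YTHDF2 IP libraries on the left and the 3 Input libraries on the right, and its segments give the percent of the reads of the 10 genes that each gene took. The lowest segment, Cnot1, reaches 41.9% to 59.3% in the IP and 33.2% to 36.7% in the Input, and the segment of Cnot8 is absent from IP replicate 3.

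Subunits with like or partner roles were compared by the ratio of their reads within each library, set between IP and Input. Such a comparison does not depend on scaling. Transcript length cancels only as far as it affects the IP and the Input alike, which was not tested. There were 4 pairs, each tested by an exact two-sided permutation test over the 6 libraries, whose smallest possible p is 0.1, so no pair could pass 0.05. Ratios are log2 values with 0.5 added to each count. How often IP and Input ratios lie apart for pairs of other genes was not computed. Groups that lie apart below are therefore not read as a trait of the complex.

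Cnot7 over Cnot8 had log2 ratios of 0.95, 2.49 and 9.09 in YTHDF2 IP replicates 1, 2 and 3, against -0.020, -0.29 and 0.42 in Input replicates 1, 2 and 3. The groups did not overlap, and the ratio was higher in every IP library (difference of means 4.14, exact permutation p = 0.1, adjusted 0.133 over the 4 pairs). The value of 9.09 rests on the 0 reads of Cnot8 and on the 0.5 added, and without IP replicate 3 the difference was 1.69. Cnot2 over Cnot3 had log2 ratios of 0.49, 0.49 and 0.71 in the IP replicates, against -0.11, 0.060 and -0.35 in the Input replicates. This difference of 0.69 (exact permutation p = 0.1, adjusted 0.133) was carried by all 3 IP libraries alike, although neither gene passed the test by itself. In the module of Cnot10 and Cnot11, Cnot10 over Cnot11 had log2 ratios of 2.02, 1.04 and 1.93 in the IP replicates, against 0.95, 0.35 and 0.53 in the Input replicates. These groups did not overlap either, with a difference of 1.05 (exact permutation p = 0.1, adjusted 0.133). Cnot6 over Cnot6l had log2 ratios of -0.64, -0.84 and -0.21 in the IP replicates, against -0.29, -0.40 and -0.041 in the Input replicates. Here the groups overlapped, with a difference of -0.32 (exact permutation p = 0.3, adjusted 0.3). It was -0.18 without IP replicate 2 and -0.50 without IP replicate 3.

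**Figure D4:**
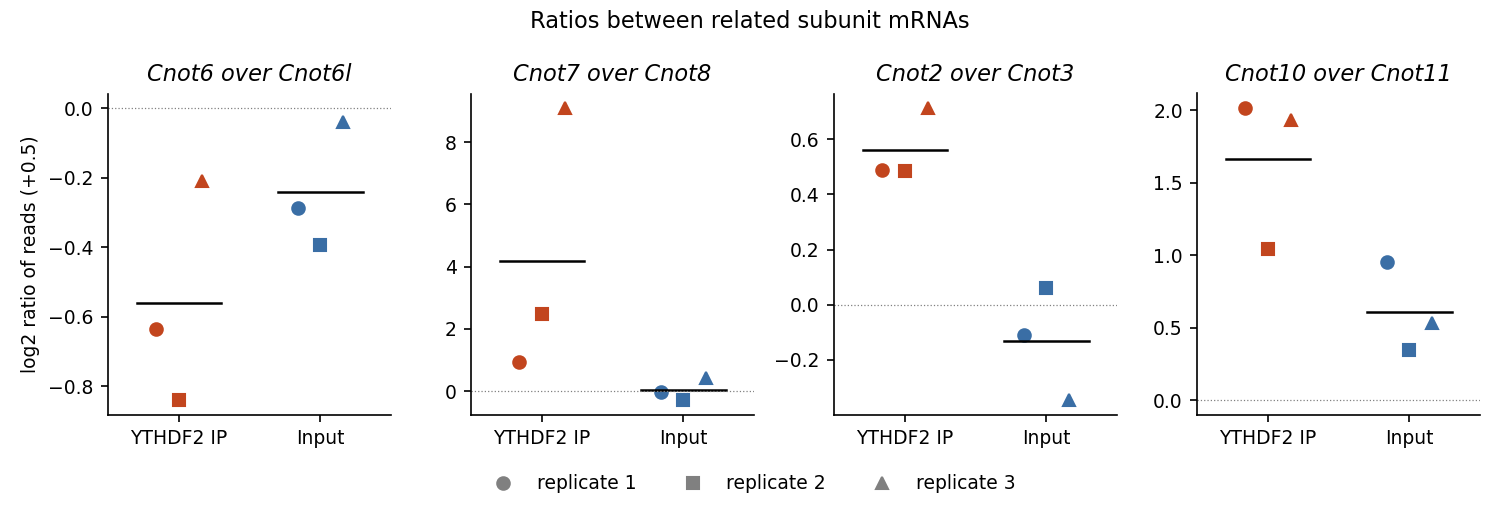
The log2 ratio of reads between 2 related subunit genes (vertical axes, 0.5 added to each count) is drawn for the 3 YTHDF2 IP libraries (red) and the 3 Input libraries (blue), with lines at the group means. The groups are apart for Cnot7 over Cnot8, Cnot2 over Cnot3 and Cnot10 over Cnot11, and overlap for Cnot6 over Cnot6l.

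The span of 9 of the 10 genes in the RefSeq table overlaps another annotated gene. Protein-coding neighbours are Setd6 for Cnot1, Leng1 for Cnot3, Gm52799 for Cnot6l, Vps37a for Cnot7 and Gm12248 for Cnot8, and the span of Cnot6 holds a pair of pseudogenes. These spans include introns, and whether exons overlap was not examined. The strand setting of the counting is not given in the sources used here. Whether reads from overlapping genes were added to these counts or left out of them is therefore not known, and the counts carry that uncertainty.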

How the data were processed

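The deposited files hold raw counts of reads per Ensembl gene ID, with 1 library in each. Trimmomatic 0.39, HISAT2 2.1.0, HTSeq and DESeq2 were used with build mm10, per the submitters' processing notes. The sources used here give neither their roles nor the annotation release, the strand setting or the treatment of duplicates. Each file also lists 92 spike-in IDs (0 to 2 reads per library) and 5 summary categories. Their reads entered no test as features and no library size of the main fit. They did enter the totals wherever library sizes or levels were taken from all reads. An IP file had 71.2% to 72.1% of its reads outside annotated features and an Input file 49.6% to 51.6%.

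Counts were tested in R 4.3.3 with the robust quasi-likelihood F-test of edgeR 4.0.16, two-sided, after filterByExpr and TMM scaling, with group as the only term. P-values were adjusted by Benjamini-Hochberg over all 15615 genes tested, and calls needed an adjusted p under 0.05. Standard errors come from the F statistics, and 95% intervals from the t distribution with the fit's degrees of freedom. All 10 members passed the count filter. Ratios of subunit pairs were tested by exact permutation with SciPy 1.17.1. Alternatives used DESeq2 1.42.0, limma 3.58.1, other scalings, other filters, a replicate block and each library left out in turn. The test was also run on simulated counts with the same dispersion for all genes and both groups. They lack the larger spread of the IP libraries, so that run does not show how the test behaves under it. Libraries of a group differed by more than counting noise (chi-square per degree of freedom of at least 16.07), so no file holds the same library as another. Separate preparations of 1 lysate would also differ by more.

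The rule for the members uses no measured value, but the complex and the lists were chosen with earlier results of these data known. The naming rule takes all 10 members, whose IDs were paired with symbols in the definition of the group. The RefSeq table (GRCm38.p6) matched all 10 by symbol and held an Ensembl ID in 0 of 49997 rows. Other decay genes, Cnot9 among them, and cell type markers, including those of Treg cells, were therefore not checked. Transcript lengths and sequences were not used. Between IP and Input libraries of equal number, deviations from the group mean correlated at 0.0999, 0.0260 and 0.0242 across genes for replicates 1, 2 and 3. The highest correlation of the same IP library with an Input library of another number was lower each time, at -0.0391, 0.00763 and 0.0183. The labels do not say which IP and Input libraries share a lysate. The main test therefore treats them as unpaired, with the replicate block as an alternative, and a pairing is not excluded.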

Additional observations from a re-analysis of the deposited data

How the results depend on the processing

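The number of enriched subunit genes was 2 (Cnot1 and Cnot4) with upper quartile factors, total gene counts, DESeq2 and a filter of 1 CPM in all libraries, and 0 when all reads set the library sizes, against 1 with TMM factors. Those fits called 6.92%, 6.02%, 6.63%, 11.35% and 1.02% of their tested genes enriched, against 4.33%. Leaving out 1 library gave 0 to 1 enriched and 0 to 1 depleted genes. Those fits called 1.09% to 5.26% of their tested genes enriched and 3.26% to 8.73% depleted. The depleted gene was Cnot6 with library sizes from all reads and Cnot8 without YTHDF2 IP replicate 3. Over all genes, library sizes from all reads gave 160 enriched and 1958 depleted genes, DESeq2 1382 and 2085, upper quartile factors 1081 and 801, and limma voom 877 and 1715, against 676 and 954. Cnot1 kept its direction in 15 of 15 alternatives and its call in 12. Cnot4 (above 0) and Cnot3, Cnot6 and Cnot11 (below 0) kept their direction in 15 of 15 and Cnot8 in 14 of 14, as the filter of 1 CPM leaves Cnot8 out. Genes near 0 changed sign. With library sizes from all reads, the log2 fold change was -0.26 for Cnot2, -0.41 for Cnot6l and -0.50 for Cnot10. That of Cnot7 was 0.15 with upper quartile factors and 0.057 with total gene counts, and that of Cnot10 was -0.044 with no filter on low counts. With 1 library left out, log2 fold changes ran from -0.11 to 0.44 for Cnot2, from -0.087 to 0.21 for Cnot6l, from -0.57 to 0.23 for Cnot7, from -0.27 to 0.19 for Cnot10, from -0.84 to -0.19 for Cnot3, from -0.31 to -0.17 for Cnot6, from -2.90 to -1.46 for Cnot8 and from -1.32 to -0.74 for Cnot11. They ran from 0.61 to 0.80 for Cnot1 and from 0.51 to 0.85 for Cnot4. Cnot11 was at -1.51 (adjusted p = 0.0576) with library sizes from all reads. Against TMM factors, the median over all genes moved by 0.20 with upper quartile factors and by 0.12 with total gene counts. What causes these shifts was not tested, but fits without a library have fewer samples. A replicate block called Cnot1 alone among the 10 (adjusted p = 0.00135), with 833 genes enriched and 1095 depleted over all genes. The differences of the 4 pair ratios kept their sign in every alternative that gave a value. Cnot7 over Cnot8 has none with a pseudocount of 0, and its difference was 3.02 with a pseudocount of 5. With the replicate block the pair differences are the same by construction, with exact sign-flip p of 0.25, the smallest possible with 3 numbers. For Cnot8 and Cnot11, which had the fewest reads in the IP, the spread between IP libraries, with coefficients of variation of 94.3% and 40.3%, limits the estimate.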
